A study of Rattus norvegicus with 15 samples.

Results

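The 7 genes described here cover the path of thyroid hormone through the rat liver: Ttr, a plasma carrier; Slc16a10, a membrane transporter; Dio1, a deiodinase; Crym, a cytosolic binding protein; the nuclear receptors Thra and Thrb; and Klf9, a hormone-induced transcription factor. They were chosen by function, as a group led by Crym, by someone who already knew the measured differences between these diets. Their own differences are therefore given as a description, with no p; where a member passed the threshold of the fit over all probe sets, this is stated beside the share of all that passed and supports nothing. Every probe set (a group of array probes read as 1 value) whose annotation named one of these genes alone was taken, which gave 14 probe sets for the 7 genes, out of 14217 genes with a probe set of their own. Of the 14, 10 passed the filter on low level and entered the fit across all probe sets, at least 1 for each gene. Crym, Dio1, Slc16a10 and Ttr had 1 probe set each, Thra and Klf9 had 3 each with 2 tested, and Thrb had 4 with 2 tested.

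Liver RNA of 15 male Sprague-Dawley rats was hybridised to 1-channel Affymetrix arrays, each array standing for a separate animal by its title. Feeding lasted 14 days and began after the rats, received at an age of 4 weeks, had adapted for 5 days. The diets held 2 g/kg genistein, 2 g/kg daidzein or no isoflavone (control), 5 animals each, in an otherwise shared mixture with casein as protein and palm oil as fat. Genistein and daidzein are soy isoflavones with one carbon skeleton, and genistein has an additional hydroxyl group; the study set them side by side for their effects on hepatic lipid metabolism.

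As background, the thyroid releases mostly the prohormone T4, which travels in plasma bound to carrier proteins, enters hepatocytes through membrane transporters and is converted to the active hormone T3 by removal of an iodine atom. Within the cell T3 can be held by binding proteins, and in the nucleus it binds receptors that sit on DNA with a retinoid X receptor partner and switch target genes on or off. The liver is both a main site of this conversion and a target tissue, in which T3 regulates genes of fat and cholesterol metabolism.

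Levels are on a log2 scale with an arbitrary zero, so that 1 unit is a doubling of signal and levels are compared between arrays of 1 probe set and never between genes. Precision is limited by the number of arrays. All 7 hepatocyte marker genes were above the filter level. Their summed level, 10.88 to 10.95, says little about differences between arrays, because most of the 7 lie at the top of the signal range, where quantile normalization gives arrays nearly equal values; Tat, a liver aminotransferase of the same list, was 1.02 lower with genistein than with control (limma adjusted p = 0.222). Correlations between arrays lay between 0.931 and 0.969. Daidzein 5 stood apart in the exocrine pancreas markers: the summed level of the 4 tested markers was 8.72 there and 2.91 to 3.77 in the other 14 arrays, and Prss1, a trypsinogen, was at 7.59 against -1.53 to 0.47. Amy2a3, an amylase of the same list that was below the filter on mean level, was at 7.15 against -2.35 to 0.48. The summed level of the 6 stellate cell and fibroblast markers was 5.45 to 5.76 with daidzein, 5.77 to 5.90 with control and 5.72 to 5.94 with genistein. Signals were added before taking the log, so Col3a1, the strongest of the 6, weighs most. Daidzein minus control was -0.30 for Col3a1, -0.76 for Dcn and -0.34 for Reln, none of which passed (limma). For Col1a1 it was -0.02, for Lrat -0.01 and for Des 0.15, so the markers did not all move together. The part of these markers in the results was not tested, and every daidzein result on a member's leading probe set is given with and without daidzein 5. In whole tissue, fewer cells of a type and less RNA per cell cannot be told apart.

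Crym encodes mu-crystallin, a cytosolic protein that binds T3 and also acts as a ketimine reductase. It was the member whose levels separated both isoflavone diets from control. On its only probe set, 1368059_at, control rats had levels of 3.48, 3.33, 2.98, 2.91 and 2.59. Daidzein rats had 2.34, 2.01, 2.20, 1.95 and 2.17, and genistein rats had 2.12, 1.21, 1.78, 2.35 and 2.24. The lowest control array lay above the highest array of either isoflavone diet, while the daidzein and genistein arrays overlapped. Genistein 2 was the lowest of all 15.

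The mean Crym level was 3.06 ± 0.35 (SD, n = 5) with control, 2.14 ± 0.16 with daidzein and 1.94 ± 0.46 with genistein. Genistein was 2.17-fold below control, a log2 difference of -1.12 (SE 0.21, 95% confidence interval -1.56 to -0.68). Daidzein was 1.90-fold below control, a log2 difference of -0.92 (SE 0.21, interval -1.36 to -0.49), and -0.93 without daidzein 5. Genistein minus daidzein was -0.20 (interval -0.63 to 0.24), so these data place the difference between the isoflavones anywhere from 0.63 lower to 0.24 higher with genistein. It was -0.19 without daidzein 5 and -0.01 without genistein 2.

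**Figure D1:**
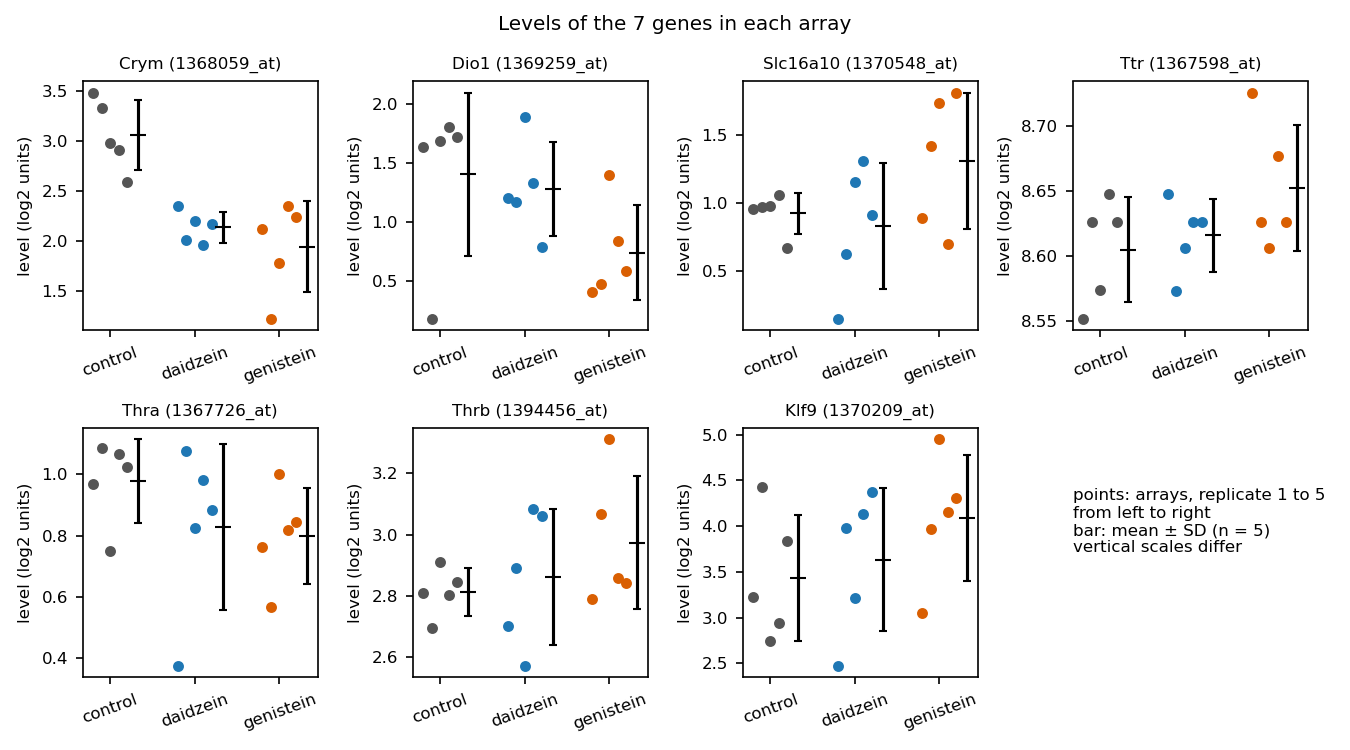
Log2 level (arbitrary zero) of the leading probe set of each of the 7 genes in the 15 arrays, with points for animals, short horizontal lines for the mean and error bars for the SD of 5 arrays. The vertical scales differ between panels. Crym is the panel in which the control points (2.59 to 3.48) share no range with the daidzein (1.95 to 2.34) or genistein (1.21 to 2.35) points.

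Among the 10 tested probe sets of these genes, only that of Crym passed an adjusted p of 0.05 in genistein against control, where 0.322% of all 18625 tested probe sets passed. None of the 10 passed in daidzein against control (0.0161% of all) or in genistein against daidzein (0.113% of all). Only Crym had groups of arrays that did not overlap, in genistein against control (2.57% of all tested probe sets) and in daidzein against control (1.88%). None of the 10 had such groups in genistein against daidzein (2.03%). Nothing is read from these counts, because the genes were proposed with these contrasts known. Of all tested probe sets, 57 had a difference as low as that of Crym with genistein and 41 with daidzein, Crym included. The genistein call was held when control 5, genistein 4 or genistein 5 was left out and was lost when any of the other 12 arrays was left out, with differences of -1.24 to -0.94. It was also lost with no filter on level, in a fit of the 10 arrays compared alone and with a replicate block. Both comparisons share the control arrays, so the lower values in both diets are not independent of each other.

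The genes whose levels followed Crym most closely over the 15 arrays, among 10744 others, were Hao1 (Pearson r 0.909, Spearman rho 0.839), Mpst (0.908 and 0.946), Gldc (0.889 and 0.929), Spon2 (0.877 and 0.811) and Dmxl2 (0.859 and 0.804). Hao1 is a peroxisomal hydroxyacid oxidase, Mpst a mercaptopyruvate sulfurtransferase, Gldc the glycine decarboxylase of the glycine cleavage system, Spon2 a secreted matrix protein and Dmxl2 a vesicle protein. These values are a description of the closest matches found in a search, and they hold the diet difference itself. With the diet means taken out, r was 0.715 for Hao1, 0.768 for Mpst, 0.661 for Gldc, 0.692 for Spon2 and 0.523 for Dmxl2. Mean levels for control, daidzein and genistein were 6.70, 6.46 and 6.32 for Hao1. They were 3.95, 3.70 and 3.56 for Mpst, and 1.90, 0.61 and -0.30 for Dmxl2. Each of the 3 had the order of the Crym means, with genistein below control by 0.37 for Hao1 and 2.19 for Dmxl2.

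**Figure D2:**
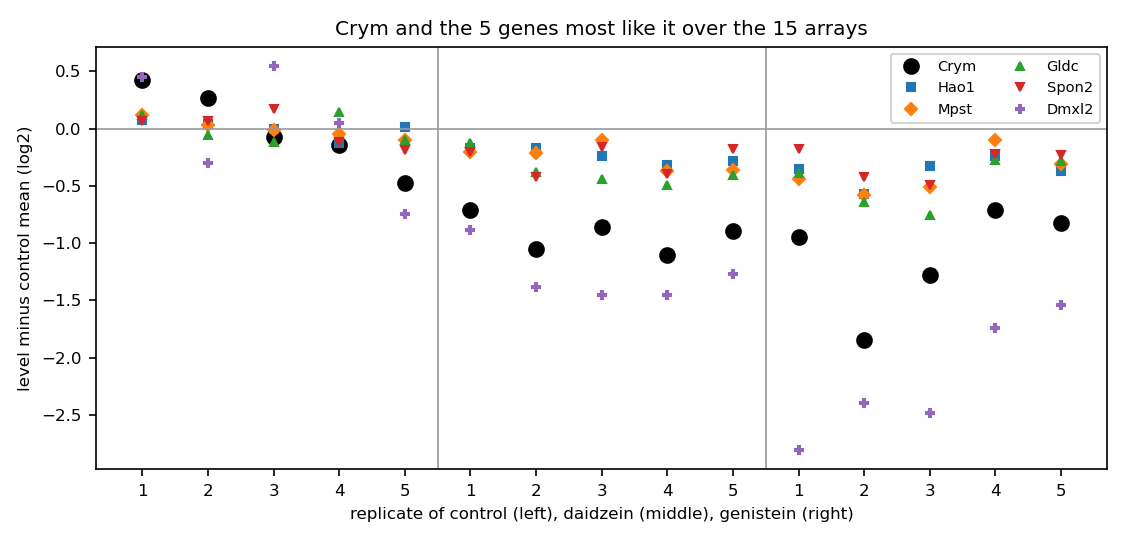
Log2 level of Crym and of the 5 genes most like it in each of the 15 arrays, as the difference from the gene's own control mean, with arrays in their diet groups. Crym lies at -0.47 to 0.42 in the control arrays and its mean is 0.92 lower with daidzein and 1.12 lower with genistein; these genes were picked for their likeness.

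Of the ketimine and lysine catabolism list, which covers the pathway in which the reductase activity of mu-crystallin is placed, 4 of 5 genes were tested and none passed in any comparison (limma). An unadjusted p under 0.05 was found for 11.6% of the 10745 tested genes with genistein, 8.54% with daidzein and 9.87% between the isoflavones, and these shares are the background of every such count given for a list. Here it was found for 1 gene, Aadat, an aminotransferase of lysine breakdown, in daidzein against control and in genistein against daidzein. Its mean level was 5.35 with control, 5.06 with daidzein and 5.46 with genistein, with genistein 0.40 above daidzein (limma adjusted p = 0.171). The median log2 difference of the list was 0.00 with genistein and -0.23 with daidzein.

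Promoter windows of RefSeq on the GRCr8 rat assembly, from 250 bases before to 50 after the gene start, were matched for 6 of the 7 genes; Crym is named only. They are shown for Dio1 and Klf9, as genes that T3 is known to induce, and for Slc16a10. Of these 6 genes, Slc16a10 was the only one with the receptor half-site in its window. Sequence outside the windows was not searched. The letters AGGTCA, the half-site that thyroid hormone receptors recognise, and GGGCGG, the GC box bound by Sp1 and Kruppel-like factors, were searched on both strands and are in capitals. The windows are chr5:127319735-127320034 on the minus strand for Dio1, chr1:230126396-230126695 on the plus strand for Klf9 and chr20:45122309-45122608 on the minus strand for Slc16a10, each written 5′ to 3′ along the gene.
Dio1: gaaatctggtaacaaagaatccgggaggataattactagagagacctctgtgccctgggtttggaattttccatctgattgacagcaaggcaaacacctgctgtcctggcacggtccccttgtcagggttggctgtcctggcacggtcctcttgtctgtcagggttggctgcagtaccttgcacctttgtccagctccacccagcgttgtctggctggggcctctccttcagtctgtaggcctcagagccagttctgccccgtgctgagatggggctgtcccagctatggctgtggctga
Klf9: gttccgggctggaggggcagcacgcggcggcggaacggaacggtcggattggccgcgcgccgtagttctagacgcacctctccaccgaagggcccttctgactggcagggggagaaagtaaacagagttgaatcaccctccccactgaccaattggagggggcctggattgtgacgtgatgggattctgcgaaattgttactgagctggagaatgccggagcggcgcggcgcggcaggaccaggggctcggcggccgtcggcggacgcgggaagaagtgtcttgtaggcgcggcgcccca
Slc16a10: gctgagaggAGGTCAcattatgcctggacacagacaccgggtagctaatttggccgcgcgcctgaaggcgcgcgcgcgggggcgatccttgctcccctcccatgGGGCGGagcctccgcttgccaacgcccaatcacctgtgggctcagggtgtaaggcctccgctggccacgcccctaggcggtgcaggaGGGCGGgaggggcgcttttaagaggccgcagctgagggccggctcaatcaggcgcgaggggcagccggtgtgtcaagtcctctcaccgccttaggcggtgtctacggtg

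The Slc16a10 window held AGGTCA once, at position -241 from the start, and GGGCGG at 2 places. The Dio1 and Klf9 windows held neither. Across 33469 rat promoter windows 16.2% held AGGTCA and 33.1% held GGGCGG on either strand, and 2 windows, none of them of these genes, held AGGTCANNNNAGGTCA, the half-site repeated after a spacer of 4 bases. The first of 2 Thra windows held GGGCGG at 5 places and the Thrb window at 4, some overlapping. A match is a description of letters in a window.

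Dio1 encodes the type 1 deiodinase, a selenium-containing enzyme of liver, kidney and thyroid that converts T4 to T3 and clears inactive iodothyronines; its own transcription is induced by T3. Probe set 1369259_at read 1.64, 0.18, 1.69, 1.81 and 1.72 in the control arrays. It read 1.21, 1.17, 1.90, 1.33 and 0.79 with daidzein and 0.41, 0.48, 1.40, 0.84 and 0.58 with genistein. Of the control arrays 4 lay within 1.64 to 1.81, and control 2 lay below every other array. The 5 genistein arrays were below every control array except control 2, which made the groups overlap.

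The mean Dio1 level was 1.41 ± 0.69 (SD, n = 5) with control, 1.28 ± 0.40 with daidzein and 0.74 ± 0.40 with genistein. Genistein was 1.59-fold below control, a log2 difference of -0.66 (SE 0.30, interval -1.31 to -0.02). Without control 2 the difference was -0.97. Daidzein minus control was -0.13 (interval -0.77 to 0.51), -0.44 without control 2 and -0.01 without daidzein 5. Genistein minus daidzein was -0.54 (interval -1.18 to 0.11), and -0.66 without daidzein 5. Leaving out single arrays moved the daidzein value between -0.44 and -0.01, with -0.28 without daidzein 3 and -0.03 without control 4. The 5 closest matches of Dio1 were Rab33b, Yipf1, Prmt3, Lrp1 and Wwtr1, with r from 0.842 down to 0.771.

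The 5 genes of selenoprotein synthesis, the machinery that inserts selenocysteine into enzymes such as Dio1, were all tested and none passed in any comparison (limma), with none at an unadjusted p under 0.05 either. Their median difference was -0.02 with genistein and -0.11 with daidzein. Of 9 further genes of hormone conjugation and deiodination, 6 were tested and none passed in any comparison (limma), with 3 genes at an unadjusted p under 0.05 with genistein, 1 with daidzein and 3 between them. Sult1c3, a sulfotransferase, had mean levels of 6.72 with control, 6.70 with daidzein and 6.00 with genistein. It was 0.71 lower with genistein than with control (SE 0.17, limma adjusted p = 0.0924) and passed when genistein 5 was left out (-0.85, limma adjusted p = 0.0380). Sult1a1, another sulfotransferase, was 0.30 lower with genistein than with control (limma adjusted p = 0.337). Iyd, which recovers iodide from iodinated tyrosines, was 0.43 higher with genistein than with daidzein (limma adjusted p = 0.187).

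Slc16a10 encodes MCT10, a plasma membrane carrier of aromatic amino acids that also carries thyroid hormones; its promoter window is the one above with the half-site. Probe set 1370548_at read 0.95, 0.97, 0.98, 1.06 and 0.67 in control, 0.15, 0.63, 1.15, 1.31 and 0.91 with daidzein, and 0.89, 1.42, 1.73, 0.70 and 1.81 with genistein. The control arrays lay close together, while genistein had 3 arrays above all controls and 2 among them. The means were 0.92 ± 0.15 (SD, n = 5), 0.83 ± 0.46 and 1.31 ± 0.50 for control, daidzein and genistein. Genistein minus control was 0.38 (SE 0.24, interval -0.12 to 0.89), and genistein minus daidzein 0.48 (interval -0.02 to 0.98), or 0.50 without daidzein 5. Daidzein minus control was -0.10 (interval -0.60 to 0.41), -0.12 without daidzein 5 and 0.07 without daidzein 1, which had the lowest value. The 5 closest matches were Ywhae, Tmem131l, B4galnt1, Amigo2 and Meox2, with r from 0.871 down to 0.840.

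Of 10 other membrane transporters of thyroid hormone, 8 were tested and none passed in any comparison (limma), against 0.335% of all 10745 genes with genistein, 0.0279% with daidzein and 0.140% between the isoflavones. With genistein 6 were above control and 2 below, with a median log2 difference of 0.21 where the 10745 tested genes had a median of -0.0038. Slco1b2, the main hepatic organic anion transporter of this family in rodents, was 0.44 above control with genistein (limma adjusted p = 0.209). Slc7a5, a light chain of the large neutral amino acid carrier, was 0.40 higher with genistein than with daidzein (limma adjusted p = 0.126). Slc10a1, the bile salt carrier of the sinusoidal membrane, was 0.25 above control with genistein (limma adjusted p = 0.300). At an unadjusted p under 0.05 there were 3 genes with genistein, 1 with daidzein and 2 between the isoflavones, all higher, beside 11.6%, 8.54% and 9.87% of all genes in either direction.

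Ttr encodes transthyretin, which carries T4 and, through retinol-binding protein, vitamin A. Probe set 1367598_at read 8.55, 8.63, 8.57, 8.65 and 8.63 in control, 8.65, 8.57, 8.61, 8.63 and 8.63 with daidzein, and 8.73, 8.63, 8.61, 8.68 and 8.63 with genistein. All 3 groups overlapped, and the means were 8.60 ± 0.04 (SD, n = 5), 8.62 ± 0.03 and 8.65 ± 0.05. Genistein minus control was 0.05 (SE 0.06, interval -0.07 to 0.17), daidzein minus control 0.01, and genistein minus daidzein 0.04, both the same without daidzein 5. The pooled SD within diets was 0.04, at the 0.0558th percentile of 10745 genes. This narrow spread goes with the normalization: the Ttr signal is at the 99.97th percentile of all probe sets, where quantile normalization gives arrays nearly the same values. Before normalization the arrays ranged from 8.10 to 8.95, with means of 8.57 ± 0.33, 8.69 ± 0.17 and 8.62 ± 0.10. On that scale genistein minus daidzein turned from 0.04 to -0.07 and daidzein minus control was 0.11. Its 5 closest matches, with r from 0.870 to 0.766, rest on differences of this size and are not read. The list of other plasma carriers and the Ttr partner held 3 genes, of which 2 were tested. Serpina7 was below the filter, with means of -1.35, -0.86 and -0.56 for control, daidzein and genistein. Alb has the same normalized value in each diet and could not be compared. Rbp4, the retinol-binding protein, was 0.11 lower with either isoflavone and did not pass (limma), also not at an unadjusted p under 0.05.

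**Figure D3:**
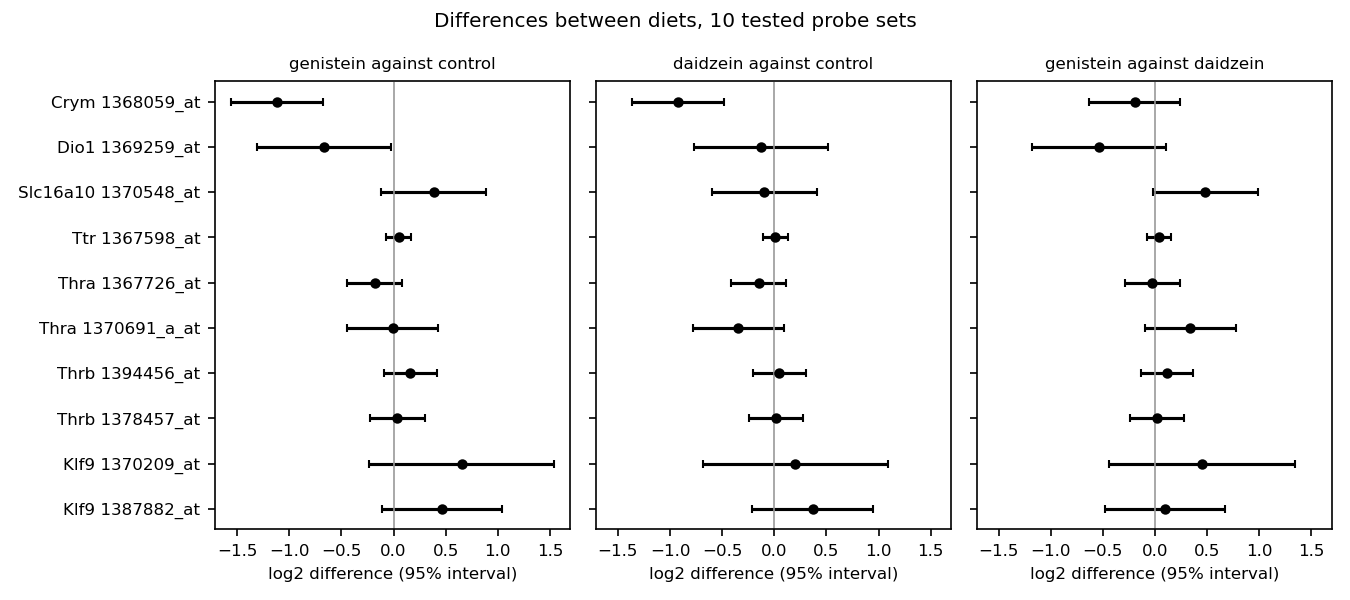
Log2 differences between diets for the 10 tested probe sets of the 7 genes, with points for the difference and lines for its 95% confidence interval from the fit over 15 arrays. The Crym intervals against control run from -1.56 to -0.68 with genistein and from -1.36 to -0.49 with daidzein, and the widest interval in each panel is that of Klf9 probe set 1370209_at.

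Thrb encodes the receptor that mediates most hepatic effects of T3. On its leading probe set, 1394456_at, control read 2.81, 2.70, 2.91, 2.80 and 2.84, daidzein 2.70, 2.89, 2.57, 3.08 and 3.06, and genistein 2.79, 3.07, 3.31, 2.86 and 2.84. The groups overlapped, with means of 2.81 ± 0.08 (SD, n = 5), 2.86 ± 0.22 and 2.97 ± 0.22. Genistein minus control was 0.16 (SE 0.12, interval -0.09 to 0.41), and daidzein minus control 0.05 (interval -0.20 to 0.30), or -0.00 without daidzein 5. Genistein minus daidzein was 0.11 (interval -0.14 to 0.36), or 0.16 without daidzein 5. The second tested probe set, 1378457_at, had means of 1.57, 1.59 and 1.61, so both tested probe sets placed the 3 diets within 0.16 of each other. Of the untested probe sets, 1370474_at had means of -0.61, -0.41 and -0.25, and 1387983_at had -0.79, -0.89 and -0.92.

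Thra encodes the receptor that predominates in heart, brain and skeleton. Probe set 1367726_at read 0.97, 1.08, 0.75, 1.07 and 1.02 in control, 0.38, 1.08, 0.82, 0.98 and 0.88 with daidzein, and 0.76, 0.57, 1.00, 0.82 and 0.84 with genistein. The groups overlapped, although 4 of 5 genistein arrays lay below the control mean. The means were 0.98 ± 0.14 (SD, n = 5), 0.83 ± 0.27 and 0.80 ± 0.16. Genistein minus control was -0.18 (interval -0.44 to 0.09) and daidzein minus control -0.15 (interval -0.41 to 0.11), or -0.16 without daidzein 5 and -0.04 without daidzein 1, the lowest array. Genistein minus daidzein was -0.03 (interval -0.29 to 0.23), or -0.02 without daidzein 5 and -0.14 without daidzein 1. The second tested probe set, 1370691_a_at, gave -0.01 for genistein and -0.35 (interval -0.78 to 0.09) for daidzein against control.

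Probe sets of 1 gene did not always follow each other over the 15 arrays. The 2 tested Thrb probe sets correlated at r 0.56, and with 1370474_at, which is below the filter, at 0.70 and 0.41. The negative Thrb values, -0.42 to -0.09, all involve 1387983_at, which is below the filter too. The 2 tested Thra probe sets correlated at 0.22, and the 3 Klf9 probe sets at 0.76 to 0.94. Below the filter level, and so not tested, were 1 Thra, 2 Thrb and 1 Klf9 probe set. Genistein minus control was 0.33 on Thra 1380518_s_at, 0.37 on Thrb 1370474_at, -0.13 on Thrb 1387983_at and 0.60 on Klf9 1390076_at. Daidzein minus control was 0.02, 0.20, -0.10 and 0.10 in the same order. Which transcripts of Thra or Thrb each probe set reads is not given in the annotation used here. Thra is also overlapped on the other strand by Nr1d1, which encodes the clock repressor REV-ERB alpha. The Nr1d1 probe set ranged from -1.13 to 3.07 over the arrays and was 1.16 above control with genistein (SE 0.79, limma adjusted p = 0.651) and 0.64 with daidzein (limma adjusted p = 0.872).

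**Figure D4:**
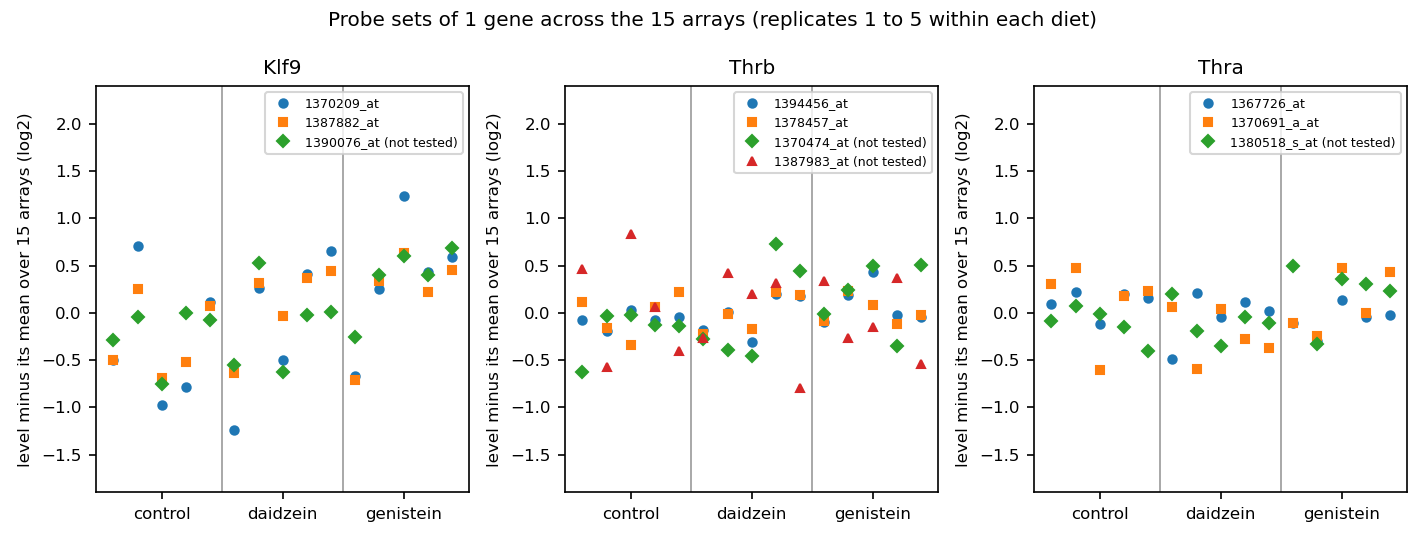
Log2 level of every probe set of Klf9, Thrb and Thra in each of the 15 arrays, as the difference from the probe set's own mean, grouped by diet and with a marker for each probe set. The Klf9 probe sets share highs and lows between arrays (r from 0.76 to 0.94), whereas those of Thra lie between -0.18 and 0.26 and those of Thrb between -0.42 and 0.70, with the negative Thrb values from 1387983_at, which was not tested.

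Among the receptor partners and cofactors, 12 of 14 genes were tested and none passed in any comparison (limma), with 1, 1 and 3 genes at an unadjusted p under 0.05 with genistein, with daidzein and between them. Ncoa3, a coactivator, had mean levels of 0.58 with control, 1.06 with daidzein and 0.25 with genistein, and was 0.81 lower with genistein than with daidzein (SE 0.16, limma adjusted p = 0.0699). It passed in that comparison with a filter at the 60th percentile, with array weights and without genistein 4, at -0.94 in the last. Ncor1, the corepressor of unliganded receptors, was 0.23 higher with genistein than with control (limma adjusted p = 0.196). Ppargc1a, a coactivator of mitochondrial and gluconeogenic genes, was 0.67 higher with genistein than with daidzein (limma adjusted p = 0.523). The list's median difference was 0.05 with genistein and 0.03 with daidzein.

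Klf9 encodes a Kruppel-like transcription factor that T3 induces in brain and liver and that glucocorticoids induce as well. Its leading probe set, 1370209_at, read 3.22, 4.43, 2.74, 2.94 and 3.83 in control, 2.47, 3.98, 3.22, 4.13 and 4.37 with daidzein, and 3.05, 3.97, 4.95, 4.15 and 4.31 with genistein. All 3 groups overlapped, and each ran over a wide range: 2.74 to 4.43, 2.47 to 4.37 and 3.05 to 4.95. The means were 3.43 ± 0.69 (SD, n = 5), 3.64 ± 0.78 and 4.08 ± 0.69. Its spread within diets was at the 97.7th percentile of 10745 genes, with Dio1 at the 94.2nd, Slc16a10 at the 88.6th and Crym at the 83.2nd.

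Genistein minus control for Klf9 was 0.65 (SE 0.42, interval -0.24 to 1.54), and 0.47 (interval -0.11 to 1.04) on the second tested probe set, 1387882_at. Daidzein minus control was 0.20 (interval -0.69 to 1.09), or 0.02 without daidzein 5 and 0.49 without daidzein 1. Genistein minus daidzein was 0.45 (interval -0.44 to 1.34), or 0.63 without daidzein 5. On 1387882_at, daidzein minus control was 0.37 (interval -0.21 to 0.94) and genistein minus daidzein 0.10 (interval -0.48 to 0.67). All of these intervals span 0, so the direction for Klf9 is not settled by these arrays.

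Klf9 levels were set beside the glucocorticoid target list and Nr1d1, a comparison added after the spread of Klf9 was seen. Over the 15 arrays Nr1d1 followed Klf9 at r 0.757 (rho 0.636), 0.723 with diet means taken out and 0.618 without control 3 and daidzein 1, the 2 arrays with the Klf9 levels farthest from the median. The 8 tested glucocorticoid targets ranged from r -0.643 for Tat to 0.648 for Mt2A, a metallothionein. Between them were Sgk1 at -0.533, Dusp1 at -0.085, Tsc22d3 at 0.221, Fkbp5 at 0.279, Per1 at 0.387 and Mt1 at 0.520. The arrays share their normalization and no p is given.

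None of the 8 tested glucocorticoid targets, of 9 listed, passed in any comparison (limma); 4 genes with genistein, 1 with daidzein and 1 between them had an unadjusted p under 0.05, which 11.6%, 8.54% and 9.87% of all genes had. Mt2A had mean levels of 2.45, 3.03 and 4.44 for control, daidzein and genistein. It was 1.99 above control with genistein (SE 0.43, limma adjusted p = 0.0709) and passed with a filter at the 60th percentile, with array weights and without control 5 or genistein 4. Mt1, another metallothionein, was 0.79 above control with genistein (SE 0.19, limma adjusted p = 0.0905) and passed without control 5 or genistein 4. Sgk1, a kinase of salt handling and stress, was 1.92 below control with genistein (SE 0.52, limma adjusted p = 0.152). The list thus held values in both directions, and its median difference was 0.03 with genistein and 0.00 with daidzein.

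The other Kruppel-like factors gave 9 tested genes of 11, and none passed (limma), with 1 gene at an unadjusted p under 0.05 with genistein, none with daidzein and 2 between them. Klf3, a repressor, was 0.61 below control with genistein (SE 0.15, limma adjusted p = 0.105), in the opposite direction from the Klf9 mean. Klf10 was 0.69 above daidzein with genistein (limma adjusted p = 0.515). Klf13, a close relative of Klf9, was 0.34 above control with genistein (SE 0.22, limma adjusted p = 0.636).

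Of 17 hepatic thyroid hormone targets other than Dio1 and Klf9, 13 were tested and none passed in any comparison (limma). With genistein 9 of the 13 were below control, with a median of -0.13, and with daidzein 7 were, with a median of -0.01; the medians over all 10745 tested genes were -0.0038 and -0.0037. At an unadjusted p under 0.05 there were 3 genes with genistein, none with daidzein and 2 between them, again beside 11.6%, 8.54% and 9.87% of all genes. Mid1ip1, a spot 14 relative that activates acetyl-CoA carboxylase, had mean levels of 3.97, 3.70 and 3.00 for control, daidzein and genistein and was 0.97 lower with genistein than with control (SE 0.29, limma adjusted p = 0.199). Fasn, the fatty acid synthase, was 0.89 lower (SE 0.39, limma adjusted p = 0.425). Cpt1a, which admits fatty acids to mitochondria, was 0.47 higher (SE 0.17, limma adjusted p = 0.318).

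Of 6 thyroid gland genes, Tg and Pax8 were tested and neither passed in any comparison (limma), with none at an unadjusted p under 0.05. The list was written as genes thought absent from liver. Tg was just above the filter, at the 42.0th percentile of level, while 3 genes were below the filter and 1 had no probe set. Over the 11 lists 70 of 90 genes were tested, and 0 passed in any comparison (limma), while 15 genes with genistein, 5 with daidzein and 14 between the isoflavones had an unadjusted p under 0.05. Among all genes 11.6%, 8.54% and 9.87% did. Under the alternatives the daidzein count ranged from 2, without daidzein 5, to 10, without control 5 and with the replicate block. The genistein count ranged from 13, with median centring only, to 22, with the replicate block and without genistein 4. Between the isoflavones the range was 9, without genistein 5, to 17, without genistein 4. Of the 70, 37 were higher and 32 lower with genistein than with control, and 35 were higher and 34 lower with daidzein; the remaining gene, Alb, has 1 value in every diet through the normalization.

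**Figure D5:**
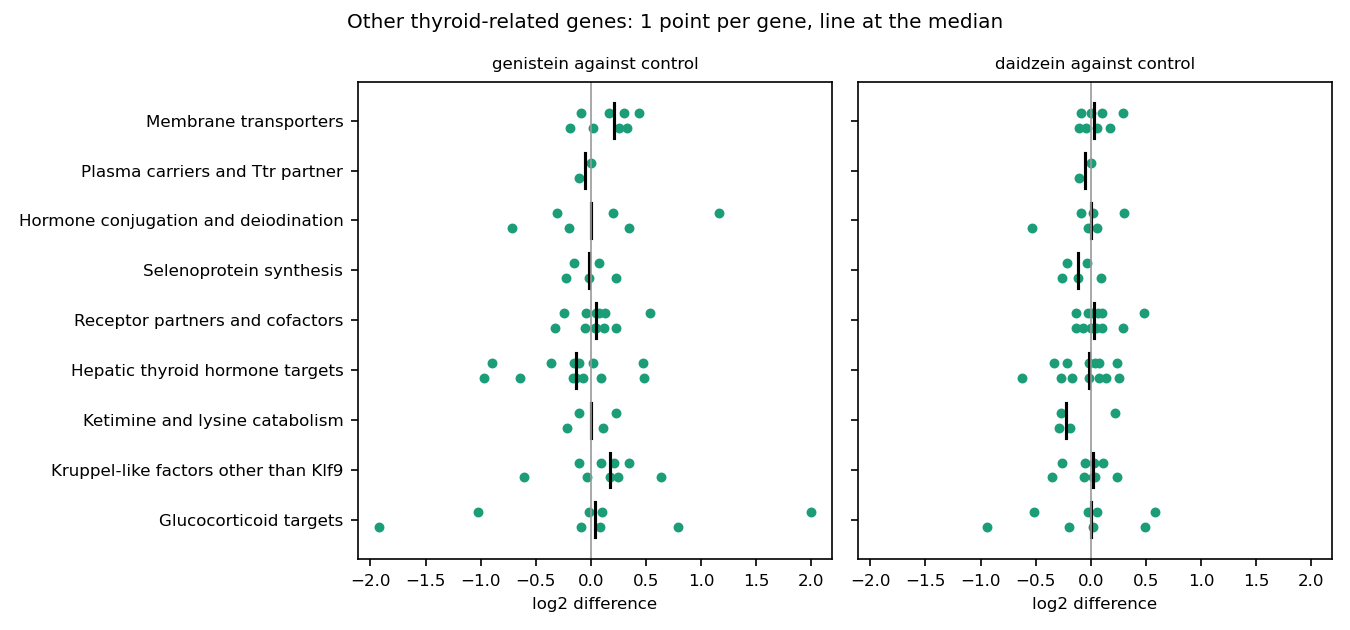
Log2 differences of the tested genes of 9 of the lists in genistein against control (left) and daidzein against control (right), with a point per gene and a black line at the list's median. The medians farthest from 0 are 0.21 for the transporters, 0.18 for the Kruppel-like factors and -0.13 for the hepatic targets in genistein against control and -0.23 for ketimine and lysine catabolism in daidzein against control, and no gene shown passed the test.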

How the data were processed

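The authors deposited 1 table of 31099 probe sets in 15 arrays. Its unit is a score, inferred from the values to be a standardized log signal per array: once each array was exponentiated with a scale of its own, the values that recur at least 100 times were spaced by whole steps in 493 of 493 gaps (tolerance 0.001). The authors' background correction and probe summarisation are not given in the sources used here. Scores were multiplied by a common 2.60 log2 units, so log2 differences depend on this inference. Array medians of the deposited scores ranged from 0.00111 to 0.127, over the limit of 0.1 set in the design, and quantile normalization was applied (limma 3.58.1 under R 4.3.3). After removal of 57 control probe sets, tests covered the 18625 of 31042 probe sets whose mean level reached the 40th percentile. A model with 3 group means was fitted over 15 arrays with lmFit and eBayes (12 residual and 2.58 prior degrees of freedom), with Benjamini-Hochberg adjustment over all tested probe sets of a comparison and a threshold of 0.05. SE, intervals and adjusted p come from this fit. Each p sets a difference of means against the spread between these animals, moderated over all tested probe sets.

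Symbols came from the array annotation (1 symbol for 20826 probe sets, several for 436, none for 9780; 20758 found in the current gene table). A gene was represented by its probe set of highest mean level, which gave 10745 tested genes. The annotation names no genome build, so probe sets have no coordinates. One further probe set names Ttr together with metallothionein genes and was left out. The members and lists were chosen with earlier results of these data known. All 7 genes were named with every probe set, each list by at most 3 genes of lowest unadjusted p, and the 5 genes most like a member only for Crym and for members whose means ranged over more than their pooled SD; the glucocorticoid and Nr1d1 comparison was added after seeing the data. Of the 15 pairs of arrays with the same title number, 1 had a residual correlation above 0.1 (r from -0.163 to 0.109). These values show no pairing over whole arrays and do not address pairing limited to some genes. The numbers were used as a block only as an alternative. The numbers in the descriptions differ from those in the titles, which name the arrays here, in 9 of 15 arrays, and that of genistein 3 carries an unexplained "-re". Alternatives were other normalizations, scales and filters, 10 arrays alone, the block, array weights and each array left out. Of these steps, only the fit was checked on simulated data, for each isoflavone against control.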

Additional observations from a re-analysis of the deposited data

Results flagged for a closer look

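In 4 of 42 groups of 5 arrays, 1 array lay far from the others of its diet, with a gap to its neighbour that was a larger share of the group's range than Dixon's critical value of 0.71; chance gives about 1 in 20 groups. For Dio1, control 2 was at 0.18 with the other controls at 1.64 to 1.81 (gap share 0.893). For Slc16a10, control 5 was at 0.67 with the others at 0.95 to 1.06 (0.734). For Thra on probe set 1370691_a_at, control 3 was at -0.49 with the others at 0.29 to 0.58 (0.725). For Thrb on probe set 1370474_at, which was below the filter, control 1 was at -1.05 with the others at -0.57 to -0.44 (0.802). The 4 arrays are different control animals, so this rule flagged no array in more than 1 group. Daidzein 1 was not flagged. It had the lowest level of all 15 arrays for Slc16a10 (0.15), Thra on probe set 1367726_at (0.38) and Klf9 on probe set 1370209_at (2.47).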

How the results depend on the processing

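Under 9 other settings and 15 leave-one-out fits, Crym was lower with genistein than with control in all 24 (-1.24 to -0.94), with the call kept in 9, and lower with daidzein in all 24 (-1.04 to -0.82), with no call in any. Dio1 was lower with genistein in all 24 (-0.97 to -0.56). Counts of calls over all probe sets moved more than the differences. For genistein against control (60), they were 34 with median centring only, 14 with no filter, 124 with a filter at the 60th percentile, 0 with only the 10 arrays compared (1896 at an unadjusted p under 0.05), 17 with a replicate block, 140 with array weights and 5 to 203 leaving out 1 array. For daidzein against control (3), they were 7 with the 60th percentile, 7 with array weights and 2 to 8 leaving out 1 array. For genistein against daidzein (21), they were 9 with median centring, 35 with 16 added to the rebuilt intensities, 3 with no filter, 67 with the 60th percentile, 2 with 10 arrays, 2 with a replicate block, 74 with array weights and 3 to 136 leaving out 1 array. Without daidzein 5 the counts were 38, 2 and 4. The cause was not tested. The listed genes went from 0 calls to 1 with the 60th percentile and to 1 with array weights, both for genistein against control (Mt2A) and for genistein against daidzein (Ncoa3), and ranged over 0 to 2 and 0 to 1 leaving out 1 array. The replicate block changed the call of Crym and of no other member. Ttr without normalization or with median centring gave -0.07 and -0.05 for genistein against daidzein in place of 0.04. Low signal limits the 4 untested probe sets, which lay at the 21.7th to 36.0th percentile of level. Background itself was not measured.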
